A study of Mus musculus with 32 samples.

Results

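The 40 genes described here encode RNA polymerase I with its initiation factors and proteins that process ribosomal RNA and assemble ribosomal subunits. The list was drawn up by function, with no measured value in its rule, but with earlier results of these data known. All 40 were found on the array, measured by 57 probes, among 20660 named genes with 27235 probes. By role they comprise 6 genes of RNA polymerase I and its initiation, 3 of the box C/D snoRNP, 4 of the box H/ACA snoRNP, 6 nucleolar phosphoproteins, chaperones, helicases or GTPases, 8 of the small subunit processome and small subunit maturation, and 13 of large subunit assembly.

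Transcripts were measured by one-colour array in 4 groups, all of strain 129+Ter/SvJcl and 3 weeks old. Superior mesenteric ganglia (SMG), which belong to the sympathetic nervous system, gave 8 wild-type samples and 8 of the TH-MYCN hemizygote (TH-MYCN+/-), in which a human MYCN gene driven by the tyrosine hydroxylase promoter, active in cells that make catecholamines, leads to neuroblastoma. Spheres, clusters of cells in suspension culture, carried the same TH-MYCN+/- genotype and were measured as 8 primary cultures after 8 days and as 4 cultures passaged 5 times; the labels do not name the tissue they were started from. Each passaged culture was hybridised on 2 arrays, which were averaged, so n = 4. Only the transgene separates the first 2 groups by label, whereas spheres and TH-MYCN SMG share the genotype. The labels do not state whether samples of a group came from separate litters or pooled animals, so p-values measure the spread between these samples.

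Ribosome production starts in the nucleolus, where RNA polymerase I, brought to ribosomal DNA by UBTF and RRN3, transcribes the long precursor of the ribosomal RNAs. Small nucleolar RNPs then modify this precursor: box C/D particles methylate riboses through fibrillarin, and box H/ACA particles turn uridines into pseudouridines through dyskerin. The small subunit processome and a separate series of large subunit assembly factors fold and cut the precursor until both subunits can leave the nucleus. MYC family proteins are known to raise transcription of many of these genes, often through E-box sequences, of which CACGTG is the canonical form.

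Because E-boxes are the sequences through which MYC proteins are known to bind, promoters of the members were searched for CACGTG, a palindrome that reads the same on both strands. RefSeq promoters of mouse build GRCm38.p6, from 250 bases before to 50 bases after each start, were matched for 35 of the 40 members (43 promoters). Fbl, Npm1, Rrp12, Rrs1 and Bop1 were not matched. The motif lay in 5 of the 43 promoters (11.6%) against 7.15% of all 32851 promoters, and in 5 of 35 genes (14.3%) against 8.09% of all 27025 genes. The related letters CATGTG, or CACATG on the other strand, lay in 7 of the 43 (16.3%) against 14.2% of all promoters. The 250 bases before the start are shown for the members whose motif lies there, Nop2, a methyltransferase of large subunit ribosomal RNA, and Rrn3, the initiation factor of RNA polymerase I. CACGTG is in capitals.
Nop2: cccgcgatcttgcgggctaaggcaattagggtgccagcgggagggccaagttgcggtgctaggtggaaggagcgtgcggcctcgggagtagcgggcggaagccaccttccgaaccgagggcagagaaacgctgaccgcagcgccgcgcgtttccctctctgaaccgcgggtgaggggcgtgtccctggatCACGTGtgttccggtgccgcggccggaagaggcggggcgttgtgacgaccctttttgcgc
Rrn3: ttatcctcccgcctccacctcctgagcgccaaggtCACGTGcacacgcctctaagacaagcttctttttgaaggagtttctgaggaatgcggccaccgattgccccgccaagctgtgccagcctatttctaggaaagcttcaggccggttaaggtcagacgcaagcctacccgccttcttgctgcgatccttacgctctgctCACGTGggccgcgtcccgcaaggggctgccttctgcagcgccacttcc

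The Nop2 stretch is chr6:125131633-125131882 and the Rrn3 stretch chr16:13780449-13780698, both on the plus strand. In Nop2 the motif begins 60 bases before the start, and in Rrn3 motifs begin 215 and 48 bases before it. In Pes1, Tsr1 and Wdr43 the motif lies just after the start, and 30 bases around it are shown.
Pes1: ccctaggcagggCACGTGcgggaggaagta
Tsr1: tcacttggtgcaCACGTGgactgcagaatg
Wdr43: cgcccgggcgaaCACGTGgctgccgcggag

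These lie at chr11:3963965-3963994, chr11:74898092-74898121 and chr17:71616220-71616249, all on the plus strand, and the motif begins at base 3, 25 and 18 of the transcript. A match describes letters only, since binding was not measured, and the levels of these 5 genes are given with their roles.

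A level here is log2 of a probe's processed intensity minus log2 of the 75th percentile of intensity on its array, so a level of 0 equals that percentile. Levels of different probes cannot be set against each other, and a difference between groups is on the same log2 scale. Every one of the 57 member probes was well above background, by the scanner software's flag, in all samples of all groups. Where a gene had several probes, the brightest stands for it, and this was the same probe in all comparisons. Differences were tested with limma. Every adjusted p below is limma's after Benjamini-Hochberg adjustment over all genes tested in that comparison, and called means below 0.05.

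Array brightness differed between groups: the 75th percentile of intensity was 523 to 989 in wild-type SMG, 840 to 1358 in TH-MYCN SMG, 464 to 564 in primary spheres and 323 to 539 in passaged spheres. The 11 sympathetic neuron markers, which include Th and Dbh, were well above background in all SMG and primary sphere samples, and 10 of the 11 in every passaged culture. The SMG arrays filled slides 1 and 2, 4 of each genotype per slide, and the sphere arrays slides 3 and 4, so genotype can be compared within slides but SMG and spheres cannot. TH-MYCN SMG 4 had the lowest mean level over the 40 genes of the TH-MYCN samples, at 1.83 against 2.00 to 2.43. The counts of members called are also given without it.

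From wild-type to TH-MYCN SMG 30 of the 40 were called higher, with 21.9% of all tested genes. From TH-MYCN SMG to primary spheres all 40 were, with 50.3% of all genes, and from primary to passaged spheres 1 was, with 5.17%. The mean level over the 40 genes in a sample was 1.56 to 1.77 in wild-type SMG, 1.83 to 2.43 in TH-MYCN SMG, 3.42 to 3.56 in primary spheres and 3.51 to 3.57 in passaged spheres, so the ranges of SMG and spheres lay far apart. The mean level was highest in passaged spheres and lowest in wild-type SMG for 23 members, and 10 others had the same order with both kinds of sphere exchanged. The remaining 7 (4 and 3 by which spheres were higher) had their lowest mean in TH-MYCN SMG.

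**Figure D1:**
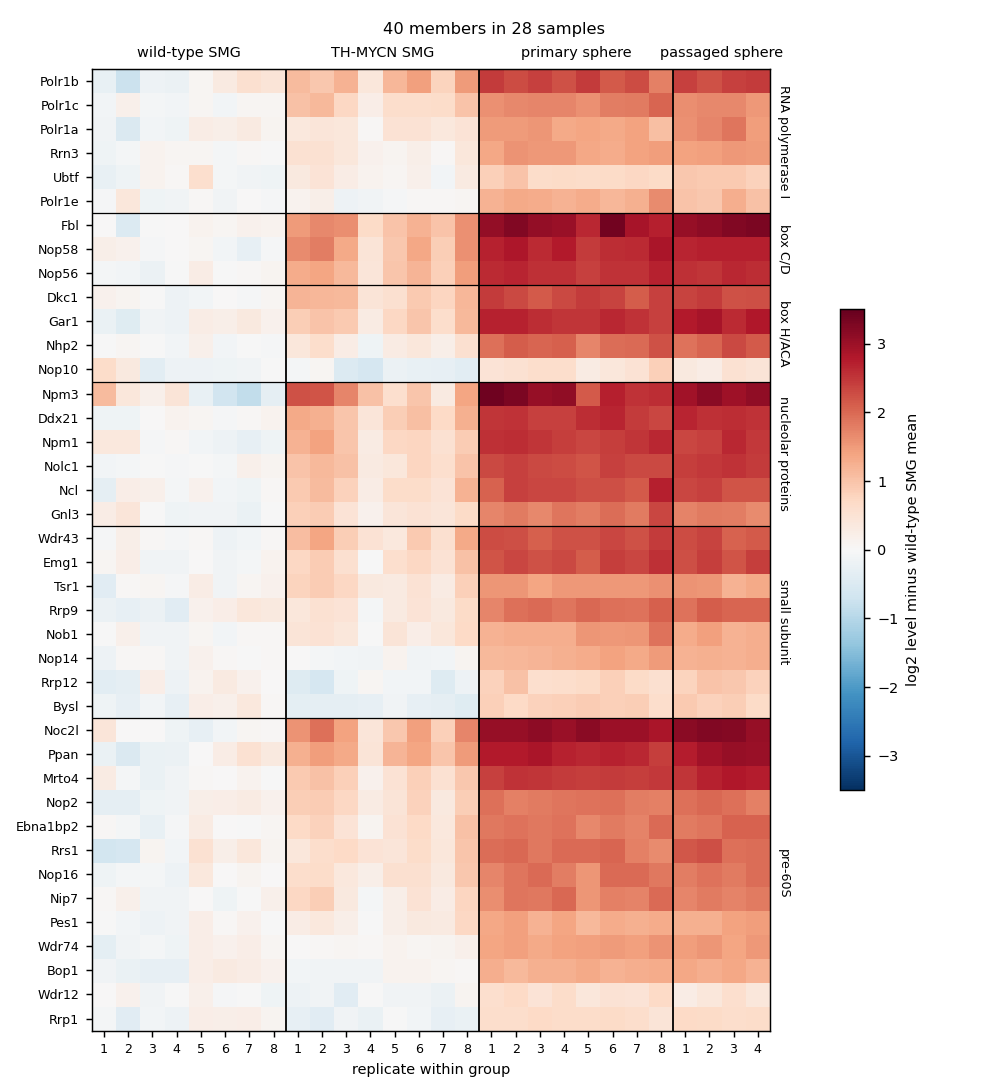
Level of each member (rows, by role) in each of the 28 samples (columns, by group and replicate) minus its mean in wild-type SMG, on a log2 colour scale where red is higher and blue lower. Most rows deepen from wild-type to TH-MYCN SMG and again to spheres, column 4 of TH-MYCN SMG is paler than its neighbours, and rows such as Nop10, Rrp12, Bysl, Wdr12 and Rrp1 are pale or light blue in TH-MYCN SMG.

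TH-MYCN and wild-type SMG differ by label in the transgene alone. Of the 40 members 30 were called higher and 1 lower, while of 15826 tested genes 21.9% were called higher and 43.8% lower. The median difference of the members was 0.58, against -0.22 over all tested genes, and 37 of the 40 lay above that median. At least 2-fold rises were called for 7 members (Npm3, Fbl, Noc2l, Nop58, Ppan, Nop56 and Polr1b), and 7.82% of all tested genes met that rule. For 11 members every TH-MYCN sample lay above every wild-type sample, as did 9.16% of all genes. For 12 more, 7 of the 8 TH-MYCN samples did, as for 5.3% of all genes, and in all 12 the eighth was TH-MYCN SMG 4, as for 4.87% of all genes. Without this sample 30 members were called higher and 2 lower, with a median of 0.61, and 23% and 44.6% of all genes, with a median of -0.23. The one call that changed was that of Rrp12, then lower by limma at -0.29 (adjusted p = 0.0449), and the members' differences moved by -0.04 (Rrp12) to 0.12 (Noc2l).

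More genes fell than rose, and the median gene was at -0.22, so the arrays were also shifted to bring that median to 0. Then 34 members were called higher and 0 lower by limma, with 32.6% and 26.2% of all genes. The 4 that joined the calls were Ubtf at 0.43 (adjusted p = 0.00431), Wdr74 at 0.30 (adjusted p = 0.00615), Polr1e at 0.24 (adjusted p = 0.0245) and Nop14 at 0.19 (adjusted p = 0.0264), while Bop1, Wdr12 and Rrp1 turned positive without a call. Slides mattered in wild-type SMG: for 16 members every sample of one slide lay above every sample of the other, 14 higher on slide 2 and 2 on slide 1, as for 29.8% of all tested genes, against 1 member in TH-MYCN SMG (8.86% of all genes). Within slide 1 (4 against 4 samples) 24 members were called higher and 0 lower by limma, with 17.8% and 30.4% of all genes. At an unadjusted p under 0.05 no member was lower either, a rule that at least those 30.4% of all genes met. Within slide 2, 26 were called higher and 3 lower, with 19.7% and 43.4% of all genes. The members no longer called higher were Pes1, Nhp2, Gnl3, Nip7, Emg1 and Nob1 within slide 1, and Pes1, Rrp9, Rrs1 and Rrn3 within slide 2. Those called lower within slide 2 were Bysl, Rrp1 at -0.34 (adjusted p = 0.00926) and Rrp12 at -0.37 (adjusted p = 0.0191). With slide as a fixed block Bysl and Rrp1 were called lower and the count of rises stayed at 30, with 23.3% of all genes higher and 47.7% lower.

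All the polymerase genes had a positive difference, and 4 of 6 rose (median 0.34). Polr1b, the second-largest polymerase subunit, had the largest. Its level in wild-type SMG was -1.61 at the lowest, -0.91 at the median and -0.29 at the highest, and in TH-MYCN SMG -0.45, 0.27 and 0.63. TH-MYCN SMG 4 alone lay within the wild-type range. The difference was 1.07 (SE 0.19, n = 8 and 8; adjusted p = 0.00015), or 2.09-fold. Wild-type samples of slide 2 (mean -0.50) all lay above those of slide 1 (mean -1.21), and within slides the Polr1b difference was 1.27 (adjusted p = 0.0034) and 0.86 (adjusted p = 0.00343). Polr1c, a subunit shared with RNA polymerase III, rose by 0.75, Polr1a, the largest subunit, by 0.38, and Rrn3, whose promoter is shown above, by 0.30. Within slides 1 and 2 Polr1a was at 0.53 (adjusted p = 0.0179) and 0.24 (adjusted p = 0.0308), and Rrn3 at 0.42 (adjusted p = 0.0291) and 0.18 (adjusted p = 0.137). Polr1e, a subunit found in RNA polymerase I alone, had the smallest difference. Its 3 values were 0.28, 0.39 and 0.83 in wild-type and 0.25, 0.47 and 0.62 in TH-MYCN SMG. The samples of both groups were mixed, and the difference of 0.02 had a 95% confidence interval of -0.16 to 0.20 (adjusted p = 0.875). The other gene not called was Ubtf, the ribosomal DNA binding factor, at 0.21 (adjusted p = 0.118). One wild-type sample, number 5, lay at 6.87 while the next lay at 6.42, and without it the difference was 0.29 (adjusted p = 0.0113).

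All 3 box C/D genes rose at least 2-fold. Fbl encodes fibrillarin, the methyltransferase. Its level was 1.28, 1.79 and 1.89 (lowest, median, highest) in wild-type SMG and 2.42, 3.10 and 3.42 in TH-MYCN SMG, with no overlap. The difference was 1.28 (SE 0.14; adjusted p = 2.24e-06), or 2.43-fold. Nop56 and Nop58 are the paired core proteins that hold fibrillarin on the guide RNA. Nop56, the smallest change of the 3, went from 4.11, 4.30 and 4.57 to 4.75, 5.47 and 5.77, again with no overlap, by 1.08 (SE 0.13; adjusted p = 3.31e-06). Nop58 rose by 1.25 (SE 0.16), and its groups did not overlap either.

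Of the 4 box H/ACA genes 3 rose. Dkc1, encoding dyskerin, the pseudouridine synthase, moved most. Its level was -1.20, -1.03 and -0.87 in the wild type and -0.57, 0.01 and 0.16 in TH-MYCN SMG. Every TH-MYCN sample lay above every wild-type sample, and the difference was 0.92 (SE 0.11; adjusted p = 6.22e-06). The core proteins Gar1 and Nhp2 rose by 0.82 and 0.33, Nhp2 with TH-MYCN SMG 4 below all wild-type samples. Within slide 1 Nhp2 was not called (0.30, adjusted p = 0.162). Nop10, the smallest protein of the particle, did not pass the test. It went from 4.18, 4.41 and 5.17 in wild-type SMG to 3.93, 4.26 and 4.61, with overlapping groups and a difference of -0.27 (95% confidence interval -0.56 to 0.01; adjusted p = 0.0817). The highest 2 wild-type values of Nop10 were from replicates 1 and 2. Nop10 was called lower in 4 of 28 other settings. These were a replicate block (adjusted p = 0.014), all 4 groups in one fit (adjusted p = 0.0386), and leaving out wild-type SMG 3 (adjusted p = 0.0452) or TH-MYCN SMG 2 (adjusted p = 0.0462).

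All 6 nucleolar proteins rose (median 0.81). Npm3, a histone-chaperone relative of nucleophosmin, had the largest difference of all 40 and the widest spread. Its values were -3.71, -2.89 and -1.73 in wild-type SMG and -2.53, -1.64 and -0.61 in TH-MYCN SMG. The groups overlapped, with 4 of 8 TH-MYCN samples above all wild-type ones, and the difference was 1.30 (SE 0.31; adjusted p = 0.00176). All 4 wild-type samples of slide 1 lay above those of slide 2 (means -2.31 and -3.37), and within slides the Npm3 difference was 1.26 (adjusted p = 0.0113) and 1.35 (adjusted p = 0.00206). Ddx21, an RNA helicase, rose by 0.98, Npm1, nucleophosmin, by 0.85, Nolc1, a chaperone of snoRNPs, by 0.78 and Ncl, nucleolin, by 0.76. Npm1 has near-identical copies in the genome, and its 5 probes gave differences of 0.82 to 2.30, so its size is uncertain. Gnl3, nucleostemin, a GTPase of dividing progenitor cells, moved least. It went from 0.38, 0.54 and 1.06 to 0.77, 1.11 and 1.52, with 5 of 8 TH-MYCN samples above all wild-type ones, by 0.55 (SE 0.12; adjusted p = 0.000799). Within slide 1 Gnl3 was not called (0.46, adjusted p = 0.0878).

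The small subunit factors were the most divided: 5 of 8 rose, 1 fell and 2 were not called (median 0.39). Wdr43, a processome protein, rose most. Its values were -0.35, -0.15 and 0.04 in wild-type SMG and 0.21, 0.73 and 1.22 in TH-MYCN SMG. The groups did not overlap, and the difference was 0.87 (SE 0.14; adjusted p = 5.19e-05). Emg1, a methyltransferase of small subunit RNA, rose by 0.63, the late maturation factor Tsr1 by 0.58, the U3 snoRNP protein Rrp9 by 0.39 and the endonuclease Nob1 by 0.39. Rrp9 was at 0.61 within slide 1 (adjusted p = 0.0129) and at 0.17 within slide 2 (adjusted p = 0.181), while Emg1 at 0.53 (adjusted p = 0.055) and Nob1 at 0.35 (adjusted p = 0.0775) were not called within slide 1. Nop14, another processome protein, barely differed. It was at -0.69, -0.48 and -0.36 in wild-type and -0.64, -0.59 and -0.40 in TH-MYCN SMG, with mixed samples and a difference of -0.04 (95% confidence interval -0.18 to 0.11; adjusted p = 0.659). Rrp12, an export factor, was at -0.25 (adjusted p = 0.086), and it was called lower within slide 2 and without TH-MYCN SMG 4.

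Bysl, encoding bystin, a late small subunit factor named here because it alone was called lower by the fit without slide, fell by 0.30. Its level was 2.06, 2.32 and 2.73 in wild-type SMG and 1.94, 2.04 and 2.23 in TH-MYCN SMG. The TH-MYCN values were tightly grouped, 6 of 8 of them below every wild-type sample (SE 0.10; adjusted p = 0.012). Wild-type samples of slide 2 (mean 2.56) all lay above those of slide 1 (mean 2.15), and the Bysl difference was -0.11 (adjusted p = 0.4) within slide 1 and -0.50 (adjusted p = 0.00368) within slide 2. After the shift of the median gene to 0 it was -0.08 (adjusted p = 0.485), so the call held neither within slide 1 nor under that scaling.

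Among the 13 large subunit factors 9 rose and 4 were not called (median 0.53). Noc2l, a nucleolar complex protein, led. Wild-type levels were -0.49, -0.18 and 0.23, and those with the transgene 0.23, 1.23 and 1.72. The highest wild-type and the lowest TH-MYCN sample, number 4, almost met, and the difference was 1.28 (SE 0.18; adjusted p = 2.27e-05). Ppan rose by 1.19, Mrto4 by 0.72, Nop2 by 0.65, Ebna1bp2 by 0.59, Rrs1 by 0.58, Nop16 by 0.53, Nip7 by 0.44 and Pes1 by 0.30; Rrs1 brings the smallest ribosomal RNA into the particle, and Mrto4 holds the place of a stalk protein. The brightest Ebna1bp2 probe and one other gave 0.59 each, and a dimmer one -0.01 (adjusted p = 0.957). A dimmer Pes1 probe likewise gave 0.02 (adjusted p = 0.876), and the mean of both Pes1 probes 0.16 (adjusted p = 0.11). Within slides Pes1 was at 0.31 (adjusted p = 0.0566) and 0.30 (adjusted p = 0.0623). Rrs1 was at 0.30 (adjusted p = 0.108) within slide 2 and Nop2 at 0.39 (adjusted p = 0.0263), while Nip7 was not called within slide 1 (0.47, adjusted p = 0.0802).

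Pes1, Bop1 and Wdr12 form 1 complex, PeBoW, needed for large subunit processing, and only Pes1 of the 3 was called, although differences between the 3 were not tested. Bop1 had the smallest difference among the large subunit factors. Its level was 2.58, 2.88 and 3.20 in wild-type and 2.75, 2.85 and 3.00 in TH-MYCN SMG. The TH-MYCN range lay inside the wild-type range, and the difference was -0.01 (95% confidence interval -0.23 to 0.21; adjusted p = 0.912). In both genotypes Bop1 was higher in every sample of slide 2 than of slide 1, and it was at 0.12 within slide 1 (adjusted p = 0.341) and -0.15 within slide 2 (adjusted p = 0.115). Wdr12 was at -0.13 (adjusted p = 0.13), Wdr74, an assembly factor, at 0.08 (adjusted p = 0.433) and Rrp1, a nucleolar protein, at -0.21 (adjusted p = 0.0679). With slide as a fixed block the Rrp1 difference was called lower (adjusted p = 0.0215).

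**Figure D2:**
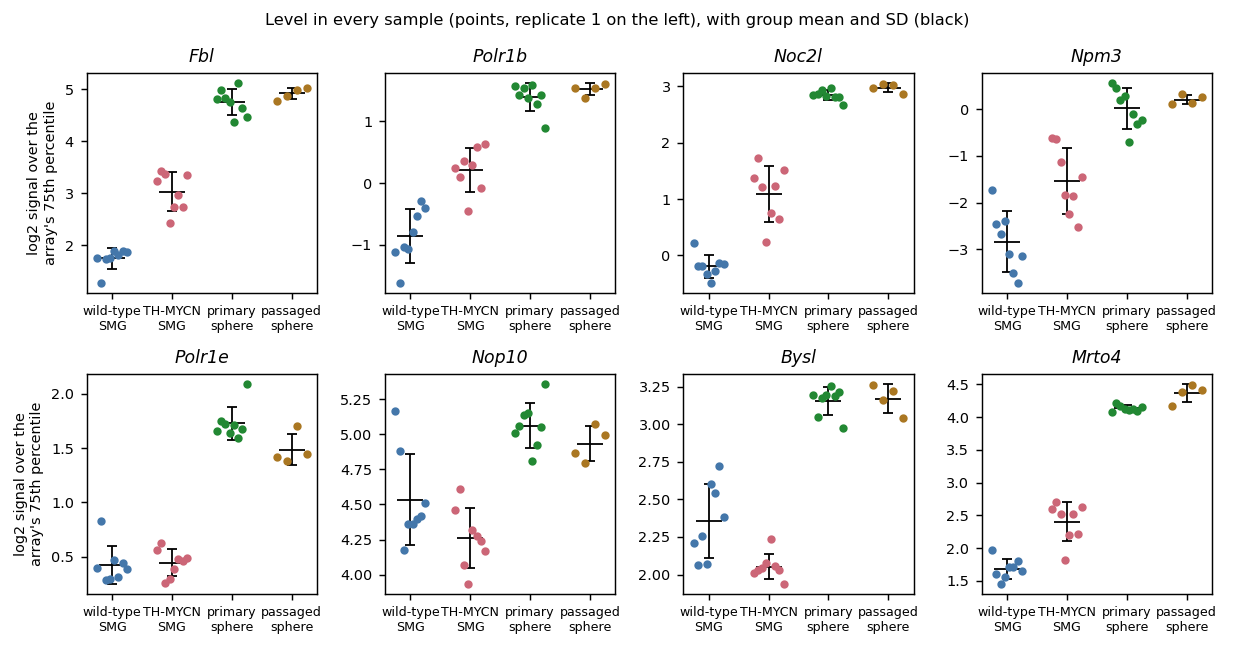
Level of 8 members in every sample (points, replicate 1 at the left of its group), with group mean and SD in black, on the log2 scale over the array's 75th percentile. Fbl, Polr1b, Noc2l and Npm3 step up from wild-type to TH-MYCN SMG and again to spheres, Polr1e and Nop10 step up only between TH-MYCN SMG and spheres, Bysl is lowest in TH-MYCN SMG, and Mrto4 differs between primary and passaged spheres by 0.23.

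Spread among TH-MYCN SMG was the largest of the 4 groups, and it ran across most members. The SD over samples had a median over members of 0.19 in wild-type SMG, 0.25 in TH-MYCN SMG, 0.12 in primary spheres and 0.10 in passaged spheres, and the same over all tested genes was 0.25, 0.27, 0.17 and 0.16. TH-MYCN SMG 4 was the lowest of its group in 26 of the 40 members, and TH-MYCN SMG 2 and 8 were the highest in 16 and 14. How often this held over all genes was not counted. Nop58 had an SD of 0.45 in this group, Noc2l 0.50 and Npm3 0.71, whereas Wdr74 had 0.05. The 10 mitosis markers, which include Mki67, Top2a and Ccnb1, had their lowest mean among TH-MYCN samples in number 4 too, at 0.87 against 1.66 to 3.02, while its mean of 9 Schwann and satellite glia markers was the highest of that group, at 0.97.

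Marker genes of several cell types moved with genotype as well. The summed linear level (intensity over the 75th percentile) of the 10 mitosis markers was 1.72 to 60.6 in the wild type and 35.3 to 148.5 with the transgene, that of 11 sympathetic neuron markers 1087 to 1481 and 643 to 1085, that of 9 glia markers (Schwann and satellite cells) 118.9 to 144.8 and 55.0 to 82.2, that of 7 fibroblast markers 278.1 to 413.8 and 175.6 to 216.7, and that of 7 macrophage markers 16.0 to 23.2 and 25.5 to 50.6. The mean log2 level of the 10 mitosis markers did not overlap between genotypes, at -4.36 to -2.60 in wild-type and 0.87 to 3.02 in TH-MYCN SMG. Of these sums, that of the mitosis markers alone overlapped. The mean log2 level of the 11 sympathetic neuron markers did overlap, at 4.82 to 5.38 in wild-type and 4.54 to 5.14 in TH-MYCN SMG. Summed levels of 6 endothelial, 6 smooth muscle and pericyte and 4 erythroid markers overlapped too, at 3.52 to 12.4, 6.11 to 41.0 and 52.5 to 448.0 in the wild type and 2.42 to 4.44, 3.81 to 6.45 and 50.9 to 243.8 with the transgene. The part of these markers in the members' differences was not tested. In such bulk samples fewer cells of a type and less RNA per cell cannot be told apart. The array's probe for mouse Mycn, which may not read the human MYCN messenger, differed by -0.29 (adjusted p = 0.0631).

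**Figure D3:**
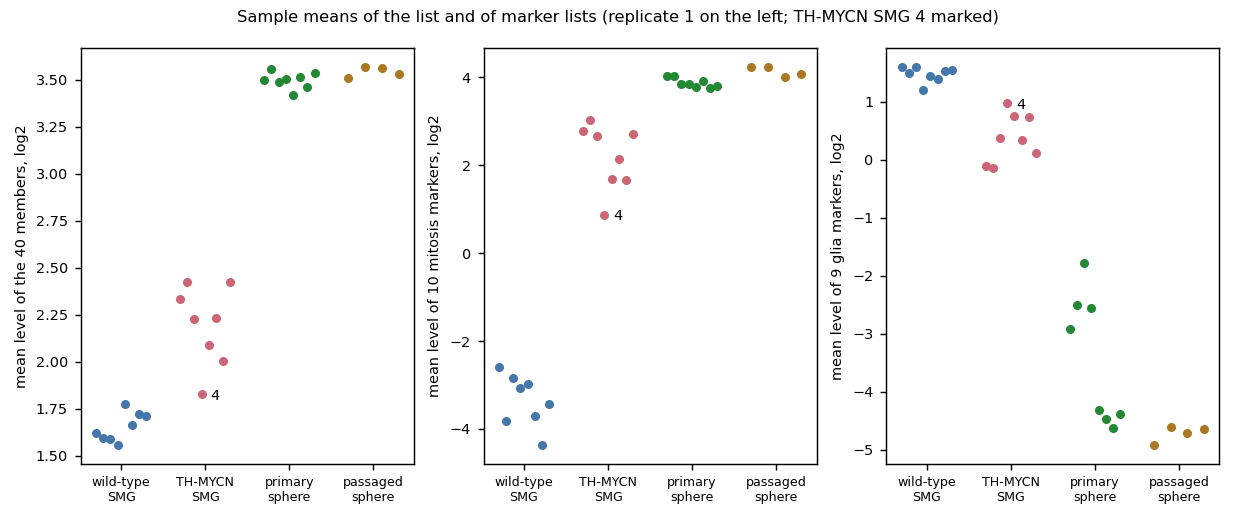
Mean log2 level per sample of the 40 members (left), of 10 mitosis markers (middle) and of 9 Schwann and satellite glia markers (right), each point 1 sample, by group. TH-MYCN SMG 4, marked, has the lowest mean of the members (1.83) and of the mitosis markers (0.87) and the highest of the glia markers (0.97) among the 8 TH-MYCN SMG samples.

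Primary spheres after 8 days of culture were then set against ganglia of the same genotype. All 40 members were called higher and 0 lower by limma, while of 15637 tested genes 50.3% were called higher and 32.9% lower. At an unadjusted p under 0.05 the members' counts were the same, with 50.7% and 33.2% of all genes. The median difference of the members was 1.33, against 0.27 over all tested genes, and the range was 0.53 to 1.76. At least 2-fold rises were called for 31 members, a rule that 16.1% of all tested genes met, and in 39 every sphere sample lay above every TH-MYCN SMG sample, as in 34.6% of all genes. Without TH-MYCN SMG 4 the count stayed at 40, with a median of 1.29, and 50.8% of all genes were called higher. The members' differences then moved by -0.12 (Noc2l) to 0.04 (Rrp12). The slides of the groups differ, so culture, slide and scan cannot be told apart. All 40 were called with slide as a random block (48% of all genes higher) and with the primary spheres of slide 3 (47.7%) or of slide 4 (46.5%) alone. These fits cannot separate slide from culture, since no slide held both SMG and spheres. Under quantile normalization 38 were called higher and Ubtf lower, with 42.7% and 37.7% of all genes, and after the shift of the median gene to 0, 40, with 37.7% and 40.4%.

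Polymerase genes rose least as a group (median 1.07). Polr1e, not called between genotypes without the shift of the median gene, led them. Its lowest, median and highest values of 0.25, 0.47 and 0.62 in TH-MYCN SMG became 1.59, 1.69 and 2.09 in primary spheres. The groups were far apart, and the difference was 1.29 (SE 0.08; adjusted p = 1.2e-10), or 2.44-fold. Polr1b rose by 1.18, Rrn3 by 1.14, Polr1c by 0.99 and Polr1a by 0.99. The smallest rise of all 40 was that of Ubtf, from 6.20, 6.50 and 6.78 to 6.93, 6.97 and 7.28. Every sphere lay above every ganglion, and the Ubtf difference was 0.53 (SE 0.08; adjusted p = 1.32e-05). Quantile normalization turned it to -0.37 (adjusted p = 0.000491), so its direction depends on the scaling.

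The 7 snoRNP genes rose by 0.80 to 1.75. Fbl went from 2.42, 3.10 and 3.42 to 4.37, 4.79 and 5.11, by 1.72 (SE 0.15; adjusted p = 1.64e-08), or 3.30-fold. Its highest ganglion sample stayed well below its lowest sphere. Nop56 rose by 1.48, and Nop58, the smallest of the box C/D genes, from 2.93, 3.80 and 4.25 to 4.92, 5.11 and 5.32, by 1.43 (SE 0.16; adjusted p = 3.18e-07). Gar1, a core protein of the H/ACA particle, went from 3.00, 3.60 and 3.84 to 5.11, 5.26 and 5.40. This was a difference of 1.75 (SE 0.10; adjusted p = 8.48e-11), with no overlap. Nhp2 rose by 1.68 and Dkc1 by 1.41. Nop10, not called between genotypes, rose least of the H/ACA genes, from 3.93, 4.26 and 4.61 to 4.81, 5.05 and 5.36, by 0.80 (SE 0.10; adjusted p = 7.43e-07). Its sphere levels overlapped those of wild-type SMG, whose highest sample was at 5.17.

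The 6 nucleolar proteins rose by 1.33 to 1.64. Npm1 was at 5.88, 6.42 and 7.00 in TH-MYCN SMG and 7.95, 8.10 and 8.24 in primary spheres, a difference of 1.64 (SE 0.13; adjusted p = 3.8e-09) with no overlap, and its 5 probes gave 1.44 to 1.98. Ncl rose by 1.56, Npm3 by 1.55, Nolc1 by 1.54 and Ddx21 by 1.50. Npm3 was the 1 member whose groups overlapped here, at -0.70 in the lowest sphere and -0.61 in the highest ganglion. Gnl3 went from 0.77, 1.11 and 1.52 to 2.31, 2.43 and 2.96, by 1.33 (SE 0.11; adjusted p = 9.43e-09), and its spheres were all above its ganglia.

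All 8 small subunit factors rose (median 1.21). The 3 not called higher between genotypes without the shift of the median gene were included: Nop14 by 1.31, Bysl by 1.103 and Rrp12 by 0.96. Emg1 rose most, from 0.54, 1.21 and 1.59 to 2.68, 2.87 and 3.11. That was a difference of 1.69 (SE 0.12; adjusted p = 1.03e-09), or 3.22-fold, and the groups lay far apart. Rrp9 rose by 1.53, Wdr43 by 1.39 and Nob1 by 1.05. Tsr1, a member with an E-box after its start, had the smallest rise of the 8, from 1.42, 1.76 and 2.02 to 2.51, 2.67 and 2.73, by 0.94 (SE 0.09; adjusted p = 8.01e-08).

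All 13 large subunit factors rose too (median 1.31). Noc2l went from 0.23, 1.23 and 1.72 to 2.67, 2.84 and 2.98, the largest difference of all 40 members at 1.76 (SE 0.17; adjusted p = 6.02e-08), or 3.38-fold. Its SD fell from 0.50 in TH-MYCN SMG to 0.09 in primary spheres. Mrto4 rose by 1.73, Ppan by 1.50, Wdr74 by 1.36, Nip7 by 1.35, Rrs1 by 1.33, Nop16 by 1.31, Bop1 by 1.27, Ebna1bp2 by 1.25, Nop2 by 1.20, Pes1 by 0.99 and Rrp1 by 0.82. A second Rrp1 probe gave 1.39, while under quantile normalization Rrp1 was not called (0.10, adjusted p = 0.247). Wdr12 rose least, from 0.84, 1.105 and 1.32 to 1.63, 1.78 and 1.94, by 0.70 (SE 0.07; adjusted p = 9.71e-08). In the PeBoW complex the rises were thus 0.99 for Pes1, 1.27 for Bop1 and 0.70 for Wdr12, each with no overlap between groups.

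Both of these comparisons use the same TH-MYCN SMG samples, so their differences are not independent, and they are set side by side only for each gene. Polr1e was at 0.02 and then 1.29, Wdr74 at 0.08 and 1.36, Bop1 at -0.01 and 1.27, and Nop14 at -0.04 and 1.31. Those 4 reached their sphere level with almost no difference between the genotypes on this scale. With the median gene shifted to 0, Wdr74 (0.30), Polr1e (0.24) and Nop14 (0.19) were called higher between genotypes and Bop1 was not. Of all genes 32.6% were called higher there. Polr1b was at 1.07 and 1.18, Nop58 at 1.25 and 1.43, Fbl at 1.28 and 1.72, and Polr1c at 0.75 and 0.99, a rise at both steps. The calls were higher in both for 30 members, none and then higher for 9, and lower and then higher for Bysl.

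Other cell types changed over this step as well. Summed levels of the 7 fibroblast markers fell from 175.6 to 216.7 in TH-MYCN SMG to 0.42 to 8.59 in primary spheres, those of the 9 glia markers from 55.0 to 82.2 to 2.21 to 11.53, and those of the 7 macrophage markers from 25.5 to 50.6 to 0.75 to 1.30. The 11 sympathetic neuron markers went from 643 to 1085 in TH-MYCN SMG to 433.2 to 555.0 in primary spheres, and the 4 erythroid markers from 50.9 to 243.8 to 0.03 to 0.40, both with no overlap. Endothelial markers summed to 3.51 to 7.04 and smooth muscle and pericyte markers to 1.12 to 4.28 in primary spheres, overlapping TH-MYCN SMG. Their mean log2 levels fell with no overlap. Endothelial markers went from -2.14 to -1.42 in TH-MYCN SMG to -5.28 to -4.10 in primary spheres. Smooth muscle and pericyte markers went from -1.93 to -1.18 to -4.74 to -3.56. The mitosis markers stood at 254.3 to 293.0, above the 35.3 to 148.5 of TH-MYCN SMG. The mean log2 level of the glia markers was -2.91 to -1.79 in primary spheres 1 to 4 (slide 3) and -4.64 to -4.33 in primary spheres 5 to 8 (slide 4). The part of these changes in the members' differences was not tested. The mouse Mycn probe rose by 2.61 (adjusted p = 1.47e-14).

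**Figure D4:**
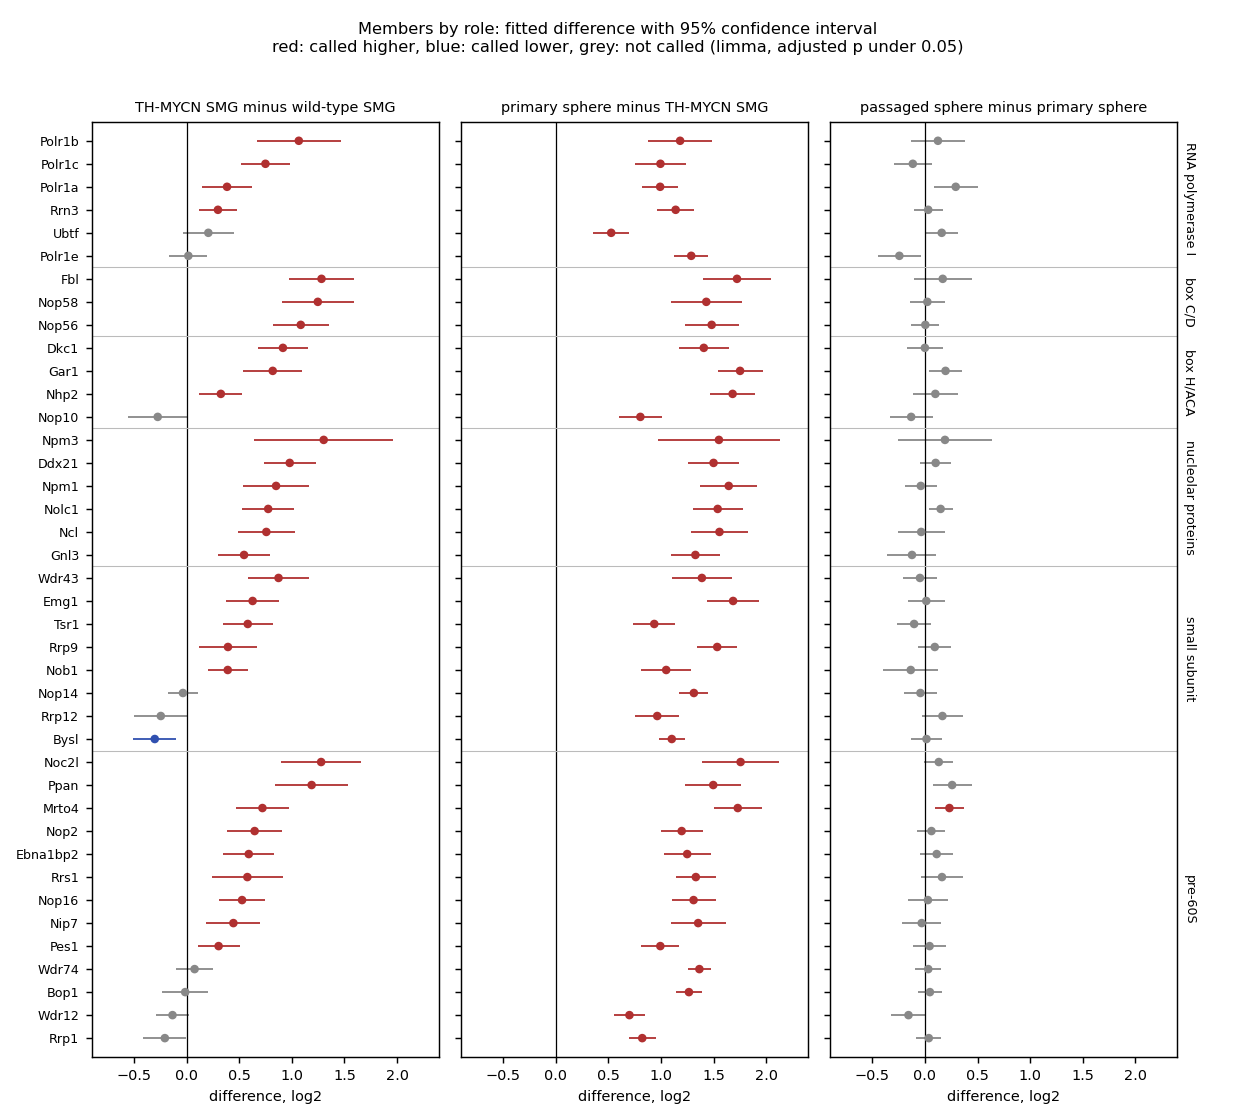
Fitted log2 difference of each member with its 95% confidence interval, by role, for the genotype (left), for primary culture (middle) and for passaging (right); red is called higher, blue called lower and grey not called by limma. Left, 30 are red and Bysl is blue; middle, all 40 are red, between 0.53 and 1.76; right, Mrto4 alone is red and all lie between -0.24 and 0.29.

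Passaged spheres set against primary spheres were compared for the effect of repeated culture; these differences share the primary spheres with the previous comparison. Of the 40 members 1 was called higher and 0 lower by limma, against 5.17% and 6.54% of 14150 tested genes, and at an unadjusted p under 0.05 6 were higher and 1 lower, against 14.6% and 14.5% of all genes. The median difference was 0.03, against 0.01 over all genes, within a range of -0.24 to 0.29. The 2 arrays of a passaged culture differed over members by a median of 0.08 without regard to sign.

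Mrto4, the assembly factor called higher, was at 4.08, 4.12 and 4.21 (lowest, median, highest) in primary spheres and at 4.17, 4.38, 4.49 and 4.42 in passaged cultures 1 to 4. Passaged culture 1 lay within the primary range and the other 3 above it. The difference was 0.23 (SE 0.06; 95% confidence interval 0.10 to 0.37; adjusted p = 0.0322), or 1.18-fold. It was not called within slide 3 (0.23, adjusted p = 0.143) or slide 4 (0.24, adjusted p = 0.0954). The Mrto4 call was also lost without primary sphere 1, 4, 6 or 7 or passaged culture 2, 3 or 4, at adjusted p of 0.051 to 0.105.

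In the polymerase, Polr1a had the largest difference. It was at 2.20, 2.53 and 2.68 in primary spheres and at 2.74, 2.85, 3.02 and 2.61 in passaged cultures, of which 3 lay above all primary spheres. The difference of 0.29 (SE 0.10) had an adjusted p of 0.0677, and with slide as a fixed block, over single arrays with culture as a random block, Polr1a was called higher (adjusted p = 0.0422). Polr1e was at -0.24 (adjusted p = 0.108), and Rrn3 differed least, at 0.03 (95% confidence interval -0.10 to 0.17; adjusted p = 0.771). Its 4 passaged values of 4.19, 4.22, 4.31 and 4.26 lay within the primary range of 4.08 to 4.35. Ubtf was at 0.16 (adjusted p = 0.163) on its brighter probe, and its dimmer probe rose by 0.67 (adjusted p = 0.00208), so the probes of Ubtf gave different calls.

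Among snoRNP genes Fbl was at 4.37, 4.79 and 5.11 in primary spheres and at 4.78, 4.87, 4.99 and 5.03 in passaged cultures, inside that range (difference 0.17, 95% confidence interval -0.11 to 0.45; adjusted p = 0.406). Nop56 was at 6.70, 6.86 and 7.01 in primary spheres and at 6.88, 6.82, 6.94 and 6.91 in passaged cultures, all inside that range, and differed by 0.00, with an interval of -0.13 to 0.14. For Gar1, primary spheres stood at 5.11, 5.26 and 5.40 and passaged cultures at 5.48, 5.58, 5.31 and 5.51. All passaged cultures but the third were above every primary sphere, at a difference of 0.20 (adjusted p = 0.0887). Dkc1 was at 1.098, 1.32 and 1.44 in primary spheres and 1.34, 1.44, 1.20 and 1.23 in passaged cultures, with an interval for its difference of -0.17 to 0.17 (adjusted p = 0.999).

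Npm3 had the largest difference of the nucleolar proteins, 0.19 (95% confidence interval -0.26 to 0.64; adjusted p = 0.572). The primary spheres of Npm3 ran from -0.70 to 0.55, and all 4 on slide 3 (mean 0.37) lay above all 4 on slide 4 (mean -0.34). Passaged cultures lay at 0.11, 0.32, 0.13 and 0.26, each the mean of an array on either slide. For 3 further members (Ppan, Nob1 and Nop14) the primary spheres of the slides also did not overlap, as for 22.3% of all tested genes. Ncl differed least, at -0.04 (interval -0.26 to 0.19; adjusted p = 0.847). Its primary spheres were at 5.67, 5.90 and 6.31 and its passaged cultures, inside that range, at 5.94, 6.00, 5.79 and 5.79. Nolc1 was the 1 member whose groups did not overlap here, at 3.22 to 3.42 in primary and 3.43, 3.50, 3.53 and 3.45 in passaged spheres. Its difference of 0.15 was not called (adjusted p = 0.0816), with slide as a fixed block it was (adjusted p = 0.0379), and 4.66% of all tested genes had every passaged culture above every primary sphere.

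Of the subunit assembly factors, Ppan had a difference of 0.26 (SE 0.09; adjusted p = 0.0681), called with slide as a fixed block (adjusted p = 0.0237). It was at 4.88, 5.14 and 5.31 in primary spheres and at 5.19, 5.40, 5.51 and 5.48 in passaged cultures, 3 of them above all primary spheres. Rrp12 was at -1.12, -1.02 and -0.67 in primary spheres and at -0.91, -0.69, -0.74 and -0.87 in passaged cultures, a difference of 0.17 (adjusted p = 0.233) with all cultures inside the primary range. Emg1 differed by 0.01 (interval -0.16 to 0.19; adjusted p = 0.931), with 2.68, 2.87 and 3.11 in primary spheres and 2.82, 2.97, 2.75 and 2.98 in passaged cultures. Nop16 differed by 0.03 (interval -0.16 to 0.22; adjusted p = 0.853), with 2.36, 2.69 and 2.82 in primary spheres and 2.63, 2.73, 2.65 and 2.78 in passaged cultures. For both genes the cultures lay inside the primary range. Npm3 had the widest interval of the 40 members. Mitosis markers summed to 302.1 to 366.0 in passaged against 254.3 to 293.0 in primary spheres and sympathetic neuron markers to 557.2 to 646.4 against 433.2 to 555.0. The mean log2 levels of both lists overlapped. They were 4.00 to 4.23 against 3.77 to 4.03 for mitosis and 3.24 to 3.98 against 3.20 to 3.72 for sympathetic neuron markers. Of the 9 glia markers 6, and of the 7 fibroblast markers 6, were well above background in no passaged culture, their part in the members' differences was not tested, and the mouse Mycn probe rose by 0.44 (adjusted p = 0.0143).

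For context, 114 other genes of ribosome biogenesis, listed by function with earlier results known, were counted by the same tests. A tested probe was found for 113. They include the remaining polymerase subunits, UTP proteins of the processome, DEAD-box helicases and exosome subunits. Of these, 55 were called higher and 8 lower in TH-MYCN SMG (median 0.22), beside 21.9% and 43.8% of all tested genes. In primary spheres 109 were called higher and 2 lower (median 0.99), beside 50.3% and 32.9%. In passaged spheres 6 were called higher and 0 lower by limma (median 0.08), or 5.31% higher, close to the 5.17% of all genes, beside 6.54% lower. Rrp15, a large subunit factor, rose most between genotypes, by 1.78, and Gnl3l, a relative of Gnl3, fell most, by 0.64.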

How the data were processed

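Each sample was hybridised to an Agilent one-colour array, and passaged cultures to 2 arrays each. Per the file headers, Feature Extraction 11.5.1.1 made the deposited processed intensity values (background-subtracted) from the scans, with design build mm9. The authors also deposited a table of log2 values, which was used as an alternative. RNA had an integrity number over 8, per the labels' protocols, and either 40 or 200 ng was labelled, without a statement of which sample had which.

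The intensity was divided by the array's 75th percentile and put on the log2 scale. Control and outlier spots were left out and spots of a probe averaged. A probe was kept if well above background in 4 or more samples of a comparison, and the kept probe with the highest mean stood for its gene. limma 3.58.1 (R 4.3.3) was fitted to the groups compared over all named genes, with Benjamini-Hochberg adjustment. The number of arrays limits the precision. On simulated data with changes added to 200 genes, the fit called 78% of 2-fold and 95% of 4-fold changes in the genotype comparison (15845 genes), 82% and 97% for primary spheres (15650 genes) and 85% and 96% for passaged spheres (14156 genes). The simulated noise was independent between samples and had the SD of the reference group. Fewer genes changed there than were called in the data, and the adjusted p depends on that number. The shares therefore hold for the simulated data only.

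All 40 members are accounted for. The members with the largest and smallest difference of each role in each comparison are given with sample values, as lowest, median and highest or as a range in groups of 8, and Bysl, Mrto4, Nolc1 and other genes named outside that rule were chosen after their values were seen. The rule for the members uses function alone, but members, lists and markers were chosen with earlier results of these data known. The array files used here hold no mean spot signal, so the normexp alternative used the median one, with an offset of 50. Alternatives were background, scaling, filter, probe choice, fit, slide, replicate block and each sample left out. The reporting of values without TH-MYCN SMG 4, the normexp change and the fits on spheres of 1 slide were chosen after seeing the data. Promoters are RefSeq's, of GRCm38.p6, matched by symbol.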

Additional observations from a re-analysis of the deposited data

Results flagged for a closer look

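In 11 of the 160 sets of samples (40 members in 4 groups) 1 sample lay far from the rest, by a gap above Dixon's 95% critical value, and chance gives about 1 in 20. In SMG these were Fbl in wild-type SMG 2 (1.28, next 1.73), Polr1e in wild-type SMG 2 (0.83, next 0.46), Ubtf in wild-type SMG 5 (6.87, next 6.42) and Polr1a in TH-MYCN SMG 4 (1.18, next 1.49). Primary sphere 8 stood apart in 5 members: it was high for Gnl3 (2.96, next 2.59) and Polr1e (2.09, next 1.75) and low for Rrp1 (5.85, next 6.01), Polr1b (0.9, next 1.29) and Polr1a (2.2, next 2.46). Primary sphere 3 was low for Tsr1 (2.51, next 2.65), and passaged culture 1 was low for Nop58 (5.12, next 5.18), where the whole range of the 4 cultures was small.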

How the results depend on the processing

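The 30 members called higher in TH-MYCN SMG numbered 24 to 34 over 28 other settings, with 16.9% to 32.6% of all genes. The 40 called higher in primary spheres numbered 38 to 40, with 37.7% to 57%. Calls of 23, 38 and 34 members were the same in every setting of the 3 comparisons in turn. The 1 member called lower in TH-MYCN SMG became 0 with the median gene shifted to 0 (26.2% of all genes lower). The count was 4 with all 4 groups in one fit (43.8%) and 2 with slide as a fixed block (47.7%). It was 0 within slide 1 (30.4%), 3 within slide 2 (43.4%), and 1 to 3 with 1 sample left out (41.4% to 44.6%). With the median shifted, Nop14 turned to 0.19 there. In primary spheres quantile normalization gave 1 lower call, Ubtf at -0.37, with 37.7% of all genes called lower. The 1 member called higher in passaged spheres became 0 with normexp (3.39% of all genes higher) and quantile normalization (3.58%). The count was also 0 with all 4 groups in one fit (2.25%), within slide 3 (2.16%) and within slide 4 (3.75%). It became 2 without a filter (19.8%), with the mean of probes (5.25%) or with second arrays (7.23%). With slide as a fixed block it became 4 (7.63%), and with 1 sample left out 0 to 2 (1.82% to 5.39%). The cause was not tested.

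Same-numbered samples did not all deviate together (r from -0.01 to 0.37, -0.08 to 0.15 and 0.08 to 0.28 in the 3 comparisons; own number best in 2 of 8, 1 of 8 and 3 of 4), so the numbers were not taken as pairs. For passaged against primary spheres 3 of 4 cultures matched their own number best, so pairing cannot be set aside there. The main fit of that comparison did not use it. A replicate block gave 30 higher and 4 lower calls in TH-MYCN SMG, with 23.2% and 47.7% of all genes. It gave 40 and 0 in primary spheres, with 50.6% and 32.9%, and 0 and 0 in passaged spheres, with 1.9% and 5.65%. The last fit kept only numbers found in both groups, so the primary spheres of slide 4 were left out. Pairing and the smaller group cannot be told apart there.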
